A study of Mus musculus with 6 samples.

Results

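Rab GTPases are the largest branch of the Ras superfamily of small G proteins. The Rab genes described here were the genes whose symbol consists of Rab, a number and at most 1 letter from a to d, and 59 of the 58327 genes in the deposited files met that rule. Their levels were measured by total RNA sequencing of GL261, a mouse glioma cell line that forms tumours in syngeneic C57BL/6 mice. One group of 3 libraries came from GL261 cells 4 h after 1 uM sodium propionate, the salt of a short-chain fatty acid that intestinal bacteria produce. The other 3 libraries came from GL261 cells 4 h after 1 uM sodium chloride, which carries the same cation. All 6 libraries share the cell line and the time point, and the labels name no genotype or further agent. Whether each library was a culture of its own is not stated in the labels, and the p-values therefore reflect the spread among these 6 libraries, which may be technical.

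A Rab protein cycles between a GDP-bound form held in the cytosol by GDP dissociation inhibitors and a GTP-bound form on a membrane. Exchange factors load GTP, GTPase-activating proteins end the active state, and the active Rab recruits tethers, motors and sorting proteins that give each organelle its identity. The membrane anchor is a geranylgeranyl lipid that Rab geranylgeranyl transferase attaches to cysteines at the C-terminal end.

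Depth was 9.33, 11.3 and 11.1 Gb of counted bases in propionate libraries 1, 4 and 5, and 9.41, 9.47 and 9.15 Gb in chloride libraries 1, 2 and 3. Propionate 1 and chloride 3 stood apart, with 71192 and 71452 transcripts covered by reads, against 81178 to 82370 in the other 4 libraries. Levels are given in TPM, the usual abundance unit per transcript length and per library, summed over the transcript models of a gene and scaled between libraries. Markers fitted the label of a glioma line, since 9 of 9 neural progenitor and glioma markers had a mean of at least 1 TPM. Their sum was 3834 to 4190 TPM in propionate libraries and 3553 to 3964 TPM in chloride libraries. Most of that sum was Vim, at 2764 to 3402 TPM, which is not particular to this lineage. Nes, Cspg4, Cd44, Sox10 and Sox2 lay between 48.0 and 370 TPM. Pdgfra had 5.41 to 6.30 TPM, and Olig1 and Olig2 were low, between 0.887 and 1.96 TPM. The macrophage marker Itgam, the T cell marker Cd3e, the neuronal markers Rbfox3 and Snap25 and the endothelial marker Kdr were listed at 0 in all 6 libraries, and the astrocyte marker Gfap lay between 0.547 and 1.31 TPM. Other members of these lists were present: the neuronal Tubb3 at 73.9 to 89.9 TPM, the astrocyte S100b at 94.7 to 106.9 TPM, the fibroblast Col1a1 at 75.2 to 98.6 TPM and the macrophage Csf1r at 1.19 to 2.05 TPM. Their part in the Rab levels was not tested. In a bulk sample, fewer cells of a type and less RNA per cell cannot be told apart.

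Every Rab gene held at least 1 cysteine codon among the last 5 codons of its coding sequence in GENCODE M21, the site of the lipid anchor. The classes of this end were CC in 15 genes, CxC in 20, CC followed by 1 codon in 3, CC followed by 2 codons in 6, CC followed by 3 codons in 6 and a lone C followed by 3 codons in 9. The last 15 coding bases of an abundant gene of each class are shown to make the differences visible, with an extra pair for the 2 largest classes and the cysteine codons in capitals.
Rab1a: ggtggaggcTGCTGC
Rab31: agccgtcggTGCTGC
Rab7: gaaagcTGCagtTGT
Rab6a: ggcggcTGTtccTGC
Rab34: gccacaTGTTGTccc
Rab5c: cagTGCTGCagcaac
Rab11a: TGCTGTcagaacatc
Rab8a: cggTGCagtctcctg
The median level was 23.4 TPM over the CC genes and 2.06 TPM over the CxC genes, but both classes held abundant genes, up to 173 TPM for Rab1a in the CC class and 95.3 TPM for Rab7 in the CxC class. Genes with a lone cysteine codon had a median of 8.76 TPM and reached 39.1 TPM at Rab28. Each class held at least 1 gene at or above the 39.1 TPM of Rab28 and at least 1 below 1 TPM.

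The family ran from genes listed at 0 in all 6 libraries to a mean of 173 TPM at Rab1a. By mean level over the 6 libraries, 13 Rab genes had at least 50 TPM, 13 had 10 to 50 TPM, 17 had 1 to 10 TPM and 16 had less than 1 TPM. The 10 highest were Rab1a, Rab2a, Rab31, Rab5c, Rab7, Rab14, Rab5a, Rab34, Rab10 and Rab6a. They made up 62.4% to 63.7% of the summed Rab level in each library, and the top 5 alone made up 37.9% to 39.4%. Rab1a was first in all 6 libraries and lay above 95.2% of all 15507 genes tested. The median over the 43 Rab genes that could be tested, those whose mean before scaling reached 1 TPM, was 19.7 TPM, against 12.6 TPM over all genes tested.

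**Figure D1:**
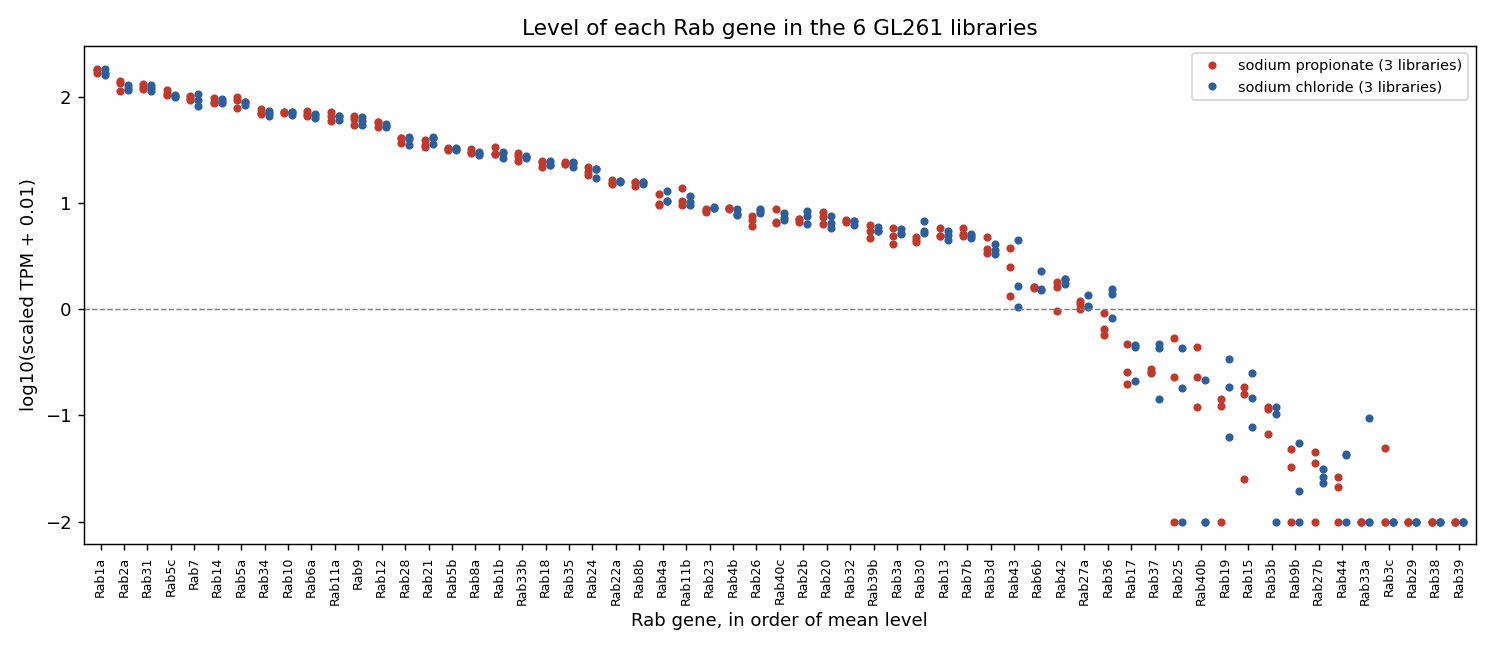
Scaled TPM of each of the 59 Rab genes on a log10 axis after adding 0.01, in order of mean level, with 3 propionate libraries (red, left) and 3 chloride libraries (blue, right) per gene. The dashed line marks 1 TPM, points at the bottom edge are values listed at 0, and Rab1a is the highest gene in all 6 libraries.

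Neighbours in this order mostly overlapped in range. For 48 of the 58 neighbouring pairs, the ranges over the 6 libraries overlapped. The 48 include genes at or near 0. Overlap of ranges does not compare genes within a library. Rab9 held rank 12 and Rab12 rank 13 in every library, although their ranges overlapped. Steps without overlap lay, among others, below Rab1a at 173 TPM, between Rab5a at 88.4 TPM and Rab34 at 70.8 TPM, between Rab12 at 54.4 TPM and Rab28 at 39.1 TPM, and between Rab8b at 15.4 TPM and Rab4a at 10.9 TPM. Rab34, Rab10 and Rab6a, at 70.8, 70.7 and 68.1 TPM, overlapped. The median coefficient of variation over the 6 libraries was 8.09% among tested members. Rab43 varied most, at 56.8%. In 4 members over 50% of the 31-base stretches of the transcripts also occur, on either strand, in transcripts of other genes: Rab43 (74.8%), Rab4b (62.7%), Rab2b (59.6%) and Rab24 (54.4%). Reads can be split between such genes where the strand does not tell them apart.

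Secretory pathway and Golgi genes held 33.5% of the summed level, at 543 ± 23.5 TPM in propionate libraries and 526 ± 25.7 TPM in chloride libraries (SD, n = 3 each). Rab1a, which drives transport from the endoplasmic reticulum to the Golgi, had 168, 181 and 178 TPM in propionate libraries, against 184, 167 and 160 TPM in chloride libraries. Rab2a, which acts between the endoplasmic reticulum and the Golgi, had 113, 139 and 134 TPM in propionate libraries, against 128, 120 and 115 TPM in chloride libraries. The ranges of the salts overlapped for both genes. Rab34, a Golgi Rab that also takes part in making cilia, had 76.2, 70.8 and 68.4 TPM in propionate libraries, against 70.0, 73.1 and 66.2 TPM in chloride libraries. Rab6a, which runs retrograde transport at the Golgi, had 66.4, 73.4 and 69.0 TPM in propionate libraries, against 69.2, 66.8 and 63.6 TPM in chloride libraries. These genes too overlapped between salts. At the middle of the order were Rab1b (29.5 TPM), Rab33b, which binds the autophagy protein Atg16l1 (27.2 TPM), and Rab18, found on lipid droplets (23.5 TPM). Rab43, another Golgi Rab, had 1.32, 3.77 and 2.45 TPM in propionate libraries, against 4.43, 1.04 and 1.62 TPM in chloride libraries, with high and low libraries in each group. Its transcript models share an assembled locus with Isy1 and Gm45140, which makes its level uncertain together with the shared stretches.

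Early endosome and recycling genes were the largest group, with 37.3% of the summed level, at 602 ± 8.43 TPM in propionate libraries and 588 ± 12.7 TPM in chloride libraries (SD, n = 3 each). Rab31, which moves cargo between the trans-Golgi network and endosomes, had 118, 131 and 123 TPM in propionate libraries, against 120, 128 and 112 TPM in chloride libraries. Rab5c, which with Rab5a and Rab5b organises fusion of early endosomes, had 115, 104 and 105 TPM in propionate libraries, against 103, 99.8 and 100.5 TPM in chloride libraries. Rab5c was the 1 tested member with every propionate library above every chloride library, while the ranges of Rab31 overlapped. Rab14, which acts between the Golgi and endosomes, had 98.0, 86.8 and 89.3 TPM in propionate libraries, against 95.9, 88.0 and 91.0 TPM in chloride libraries. Rab5a had 78.7, 98.5 and 93.6 TPM in propionate libraries, against 88.8, 88.3 and 82.7 TPM in chloride libraries. Both overlapped, and the lowest Rab5a value and the highest Rab5c value came from the same library, propionate 1. Rab11a, the Rab of the recycling endosome, averaged 66.0 ± 6.28 TPM in propionate libraries and 63.7 ± 3.25 TPM in chloride libraries (SD, n = 3 each). Rab21, which handles integrins, averaged 36.0 ± 2.94 TPM in propionate libraries and 39.3 ± 3.29 TPM in chloride libraries (SD, n = 3 each). The epithelial members were low, with Rab17 at 0.327 TPM and Rab25 at 0.222 TPM on average.

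Late endosome, lysosome and autophagy genes held 12.0% of the summed level. Rab7, which brings late endosomes and lysosomes together, had 102, 92.5 and 96.8 TPM in propionate libraries, against 106, 80.9 and 93.5 TPM in chloride libraries. Rab9, which returns mannose 6-phosphate receptors from late endosomes to the Golgi, had 53.7, 65.1 and 62.2 TPM in propionate libraries, against 58.6, 63.9 and 54.0 TPM in chloride libraries. Neither gene separated the salts. Rab24, linked to autophagy, averaged 19.7 TPM over all libraries, and its shared stretches are those of Prelid1. Rab32, which with Rab38 supplies melanosomes and related organelles, was steady at 6.75 ± 0.0937 TPM in propionate libraries and 6.55 ± 0.277 TPM in chloride libraries (SD, n = 3 each). The melanocyte genes Tyr and Mlana were listed at 0 in all 6 libraries, as was Rab38, while the other 2 of the 4 melanocyte markers were present, Pmel at 3.53 to 5.38 TPM and Mitf at 1.51 to 2.11 TPM. Rab39b, a neuronal Rab mutated in a human X-linked intellectual disability, averaged 5.49 TPM.

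Exocytosis and polarized transport genes held 13.6% of the summed level, most of it in Rab10 and Rab12. Rab10, which brings the glucose transporter Slc2a4 to the cell surface in fat cells, had 70.7, 71.9 and 71.2 TPM in propionate libraries, against 71.7, 67.7 and 71.0 TPM in chloride libraries. Its coefficient of variation was 2.18%, so that the 6 libraries were nearly level. Rab12, which steers transferrin receptors to degradation, averaged 55.6 ± 3.06 TPM in propionate libraries and 53.1 ± 1.61 TPM in chloride libraries (SD, n = 3 each). Rab8a and Rab8b, which act in polarized secretion and ciliogenesis, averaged 29.9 and 15.4 TPM over all libraries, and Rab35, a Rab of fast recycling and cytokinesis, averaged 23.4 TPM. Several Rabs of regulated secretion were low beside Rab10 and Rab12. The highest of those named here was Rab26, of secretory granules, at 7.60 TPM. Rab3a and Rab3d, known from synaptic vesicles and secretory granules, had 5.14 and 3.78 TPM. Rab27a, which docks melanosomes and exosome-bearing endosomes, had 1.12 TPM, and Rab37, a mast cell granule Rab, had 0.293 TPM.

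The remaining roles were small. Rab28, a Rab of the ciliary base, and Rab23, a repressor of Hedgehog signalling, averaged 39.1 and 8.76 TPM. Rab40c, whose SOCS box makes it an adaptor of a ubiquitin ligase, averaged 7.33 TPM, against 0.160 TPM for its relative Rab40b. The little-studied Rab42 averaged 1.44 ± 0.438 TPM in propionate libraries and 1.83 ± 0.116 TPM in chloride libraries (SD, n = 3 each). Its propionate range was 0.942 to 1.77 TPM, and 18.5 to 35.9 read pairs per library stood behind its value, as estimated from coverage.

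Among the 16 members under the filter, Rab29, Rab38 and Rab39 were listed at 0 in all 6 libraries. Rab29 recruits the kinase Lrrk2 to lysosomes and the Golgi, and Rab39 is linked to phagosome and autophagosome maturation. A further 9 members were listed at 0 in at least 1 library: Rab25, Rab40b, Rab19, Rab3b, Rab9b, Rab27b, Rab44, Rab33a and Rab3c. Rab33a was above 0 in chloride 2 alone, at 0.0850 TPM, and Rab3c in propionate 4 alone, at 0.0395 TPM, estimated at 2.20 and 3.0 read pairs. A 0 in these files can reflect an estimate that failed, not just a low level. Rab36 lay just under the filter at 0.969 TPM and Rab27a just over it at 1.12 TPM.

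Most paralog sets had a clear leading gene. Coding sequences of paralogs in the same set were 61.6% to 78.4% identical over 29 pairs, and the longest run of identical bases between any pair was 38 bases, in Rab1a (chromosome 11) and Rab1b (chromosome 19). That run is shown as the longest stretch over which the coding bases of 2 paralogs are the same.
Rab1a and Rab1b shared run: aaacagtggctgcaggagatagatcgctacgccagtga
Rab1a held 85.3% ± 1.57 of the Rab1 set in propionate libraries and 85.5% ± 0.651 in chloride libraries (SD, n = 3 each). Rab2a held 94.9% ± 0.634 over Rab2b in propionate libraries and 94.2% ± 1.04 in chloride libraries. Rab6a held 97.8% ± 0.119 over Rab6b, the mainly neuronal form, in propionate libraries and 97.4% ± 0.742 in chloride libraries. Rab7b held 5.18% ± 0.685 beside Rab7 in propionate libraries and 4.97% ± 0.453 in chloride libraries. In each of these sets the share differed between salts by less than the larger SD. Rab31 held 88.8% ± 0.946 in propionate libraries and 88.2% ± 0.828 in chloride libraries over Rab22a, which recycles cargo taken up without clathrin. In the Rab11 set, Rab11a held 85.1% ± 3.34 in propionate libraries and 85.7% ± 1.27 in chloride libraries. Rab10 held 93.2% ± 0.632 in propionate libraries and 93.4% ± 0.604 in chloride libraries over Rab13, a Rab of tight junctions. Rab26 held 96.5% ± 0.293 in propionate libraries and 96.2% ± 1.96 in chloride libraries over Rab37. Nearly the whole level of a set came from Rab9 over Rab9b, Rab27a over Rab27b, Rab33b over Rab33a, Rab39b over Rab39, Rab40c over Rab40b, and Rab32 over Rab38 and Rab29.

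Other sets were shared between members. The Rab5 set was the most even at high level, with Rab5c at 47.0% ± 3.58, Rab5a at 39.1% ± 3.69 and Rab5b at 14.0% ± 0.111 in propionate libraries, against 46.0% ± 0.759, 39.4% ± 0.775 and 14.7% ± 0.0174 in chloride libraries (SD, n = 3 each). Rab8a held 66.7% ± 1.41 of its set in propionate libraries and 65.3% ± 0.610 in chloride libraries. Of the Rab8b level, 46.8% came from assembled models, so this share depends on counting them. Rab4a, a Rab of fast recycling from early endosomes, held 53.7% ± 2.96 over Rab4b in propionate libraries and 58.1% ± 1.39 in chloride libraries, with the level of Rab4b uncertain because it shares a locus with Gm21983, Mia and Snrpa. Rab3a held 55.0% ± 1.53 in propionate libraries and 59.1% ± 1.30 in chloride libraries, with nearly all the rest in Rab3d.

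**Figure D2:**
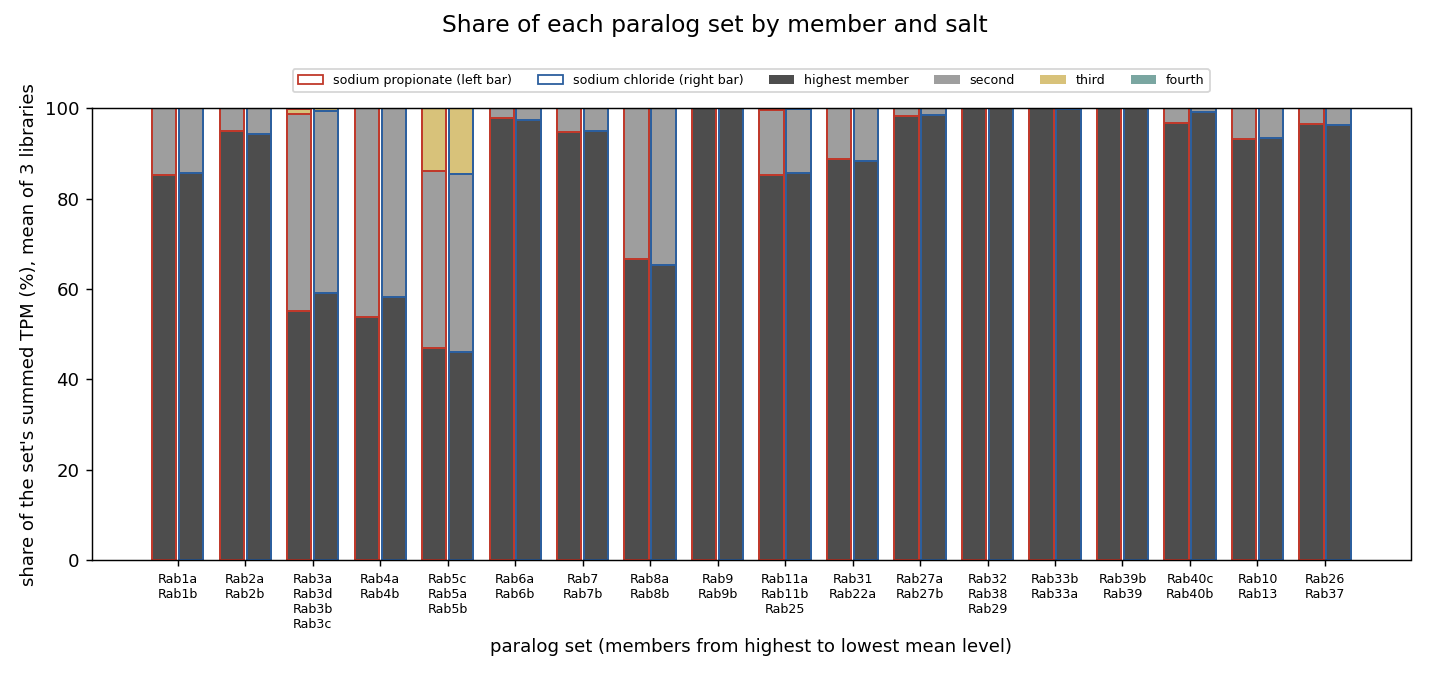
Mean share of each paralog set's summed TPM held by each member, in percent, for propionate (red outline, left bar) and chloride (blue outline, right bar), 3 libraries each. Members are stacked from the highest at the bottom, and the Rab3, Rab4, Rab5 and Rab8 sets are the ones in which no member holds over 70%.

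The balance within a set was compared between salts as a log2 ratio of the TPM + 1 of 2 members, over 13 pairs from 11 of the 18 sets in which both members were tested. For 3 of the 13 pairs the ratios of the 3 propionate libraries did not overlap those of the 3 chloride libraries. Of all single genes tested, 11.7% did not overlap in level, which is a different measure. The share among ratios of other gene pairs was not computed, so the count of pairs has no matching background. Rab4a over Rab4b had log2 ratios of 0.37, 0.07 and 0.14 in propionate libraries, against 0.39, 0.38 and 0.52 in chloride libraries. Rab3a over Rab3d had log2 ratios of 0.26, 0.22 and 0.33 in propionate libraries, against 0.41, 0.53 and 0.41 in chloride libraries. The propionate libraries were lower in both, by 0.23 for Rab4a over Rab4b and 0.18 for Rab3a over Rab3d, although propionate 1 lay just under chloride 2 for the Rab4 pair. Rab5b over Rab5c had log2 ratios of -1.82, -1.64 and -1.68 in propionate libraries, against -1.61, -1.60 and -1.64 in chloride libraries, and propionate 4 lay just under chloride 3. A two-sided exact permutation test over the 6 libraries gave p = 0.1 for each of the 3 pairs, the smallest that 3 against 3 allows, and 0.433 after Benjamini-Hochberg adjustment over the 13 pairs. The count rested on the libraries used: 7 of the pairs did not overlap without propionate 1, and 7 did not overlap in the 4 better-covered libraries, where 2 stand against 2. With reference transcripts alone it was 1 pair.

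No Rab gene differed between propionate and chloride past the threshold. With limma on log2(TPM + 1) and an adjusted p under 0.05 over all 15507 genes, 0 of the 43 tested Rab genes were higher after propionate, against 0.00645% of all genes tested, and 0 were lower, against 0% of all genes tested. At an unadjusted p under 0.05, 0 Rab genes were higher and 2 were lower, which is 4.65% of the 43, against 5.15% of all genes tested. The libraries of the salts did not overlap for 4 of the 43 (9.30%), Rab5c above and Rab23, Rab26 and Rab30 below, against 11.7% of all genes tested. Both shares lie near the background.

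The genes nearest to a difference were a granule Rab and a Golgi Rab. Rab26, a Rab of secretory granules, had 6.88, 5.98 and 7.60 TPM in propionate libraries, against 7.95, 8.82 and 8.38 TPM in chloride libraries. All propionate libraries were lower, with a log2 difference of -0.27 (SE 0.10) and an adjusted p of 0.913 in limma. Of its level, 71.6% came from assembled models in a locus shared with Traf7, and the difference was -0.07 when all models of that locus were summed and -0.16 with reference transcripts alone. Rab30, a Golgi Rab, had 4.24, 4.75 and 4.51 TPM in propionate libraries, against 5.41, 6.67 and 5.15 TPM in chloride libraries. Its propionate libraries were again all lower, with a log2 difference of -0.29 (SE 0.11) and an adjusted p of 0.913 in limma. On the higher side, Rab5c had a log2 difference of 0.10 (SE 0.06), and it was -0.0011 with TPM as deposited, without scaling between libraries. Rab4b, Rab8a, Rab7b and Rab12 followed with log2 differences of 0.13, 0.07, 0.10 and 0.06, of which Rab8a and Rab12 turned to -0.027 and -0.032 with TPM as deposited. Rab21, Rab42 and Rab4a followed Rab26 and Rab30 on the lower side, with log2 differences of -0.12, -0.23 and -0.10, and Rab21 turned to 0.025 with reference transcripts alone.

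Differences over the family were small. The log2 differences of the 43 genes ranged from -0.29 to 0.13 with a median of 0.03, against a median of 0.01 over all genes tested. By sign, 27 were higher (62.8%, against 51.8% of all genes tested) and 16 lower after scaling. However, 5 were higher and 38 lower with TPM as deposited, where the median over all genes was -0.08. For 41 of the 43 genes the 95% interval of the difference stayed within 1.5-fold of TPM + 1 in either direction. Rab42 and Rab43 were the exceptions. The interval of Rab43 reached beyond 2-fold of TPM + 1, to 1.09 on the log2 scale. For genes of a few TPM or less these bounds do not hold for TPM itself, where the fold can be larger. The median standard error was 0.09 for the Rab genes and 0.11 for all genes tested. Summed over all 59 members, the level was 1581, 1650 and 1616 TPM in propionate libraries, against 1631, 1572 and 1522 TPM in chloride libraries. These ranges overlapped, with a log2 ratio of 0.04 (two-sided exact permutation test, p = 0.4) that turned to -0.063 with TPM as deposited.

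**Figure D3:**
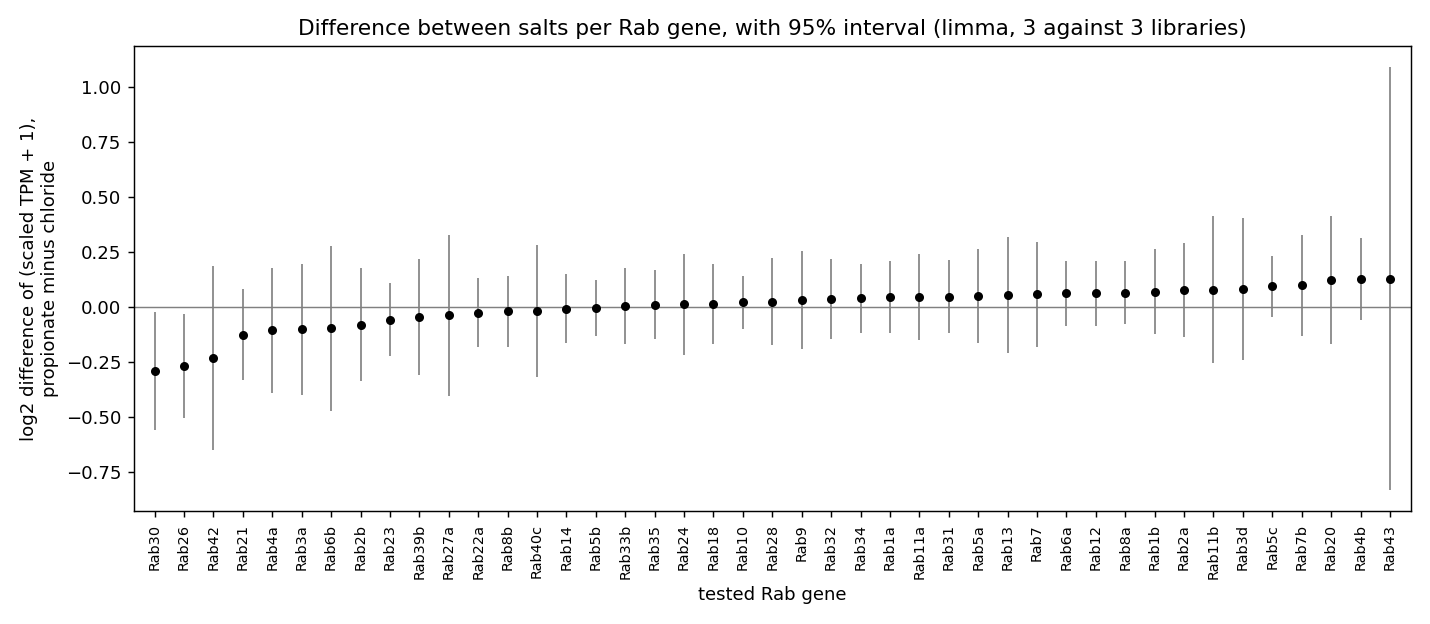
Log2 difference of scaled TPM + 1, propionate minus chloride, for the 43 tested Rab genes, with 95% intervals from limma over 3 against 3 libraries. Differences run from -0.29 at Rab30 to 0.13 at Rab43, and the interval of Rab43 is the widest.

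Transcript models gave no call either. Of 86 Rab transcripts tested with limma, 0 passed an adjusted p of 0.05 (lowest 0.845), against 0.0364% of all 35755 transcripts tested, and 4 had an unadjusted p under 0.05 (2 higher, 2 lower), against 4.62% of all. The median standard error was 0.24 for the Rab transcripts, against 0.09 for the Rab genes, so the transcript values were less precise. In 31 of the 43 tested genes the leading model held over 80% of the gene's level. The leading model was the same in all 6 libraries in 34 genes. Rab2a and Rab10 were each measured through 1 model, while Rab14 and Rab34 were split, with leading models at 64.1% and 67.0% on average. The second model of Rab14 was a retained-intron one, at 21.6% on average (8.32% to 40.1%). The summed level of Rab14 therefore includes more than its coding models. For Rab34 the second model was a coding one, at 15.3%. Model values were scaled between libraries by factors of their own, so they are not on the scale of the gene values. In chloride 3, Rab10 had 71.0 TPM as a gene and 67.8 TPM as a model. Its log2 difference was 0.02 as a gene and 0.06 as a model. For Rab11b and Rab26 the leading model was an assembled one.

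Rab6a is known to make a pair of protein isoforms from mutually exclusive exons. Its coding models ENSMUST00000032946 and ENSMUST00000098252 each have 1 coding exon of 106 bases that the other lacks, at chr7:100629838-100629943 and chr7:100629666-100629771 on the plus strand of GRCm38, the build known as mm10. These exons are shown because they set the isoforms apart, with the 30 bases that differ in capitals.
ENSMUST00000032946: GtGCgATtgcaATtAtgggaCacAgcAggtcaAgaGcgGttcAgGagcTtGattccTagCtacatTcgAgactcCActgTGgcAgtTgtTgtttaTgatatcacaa
ENSMUST00000098252: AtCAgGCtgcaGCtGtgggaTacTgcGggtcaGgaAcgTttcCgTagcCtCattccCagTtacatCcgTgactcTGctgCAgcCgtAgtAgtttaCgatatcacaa
The model ENSMUST00000032946 had 64.9, 72.2 and 58.7 TPM in propionate libraries, against 53.9, 52.2 and 52.8 TPM in chloride libraries. The model ENSMUST00000098252 had 0.821, 1.00 and 9.69 TPM in propionate libraries, against 14.0, 12.4 and 7.44 TPM in chloride libraries. All propionate libraries were above all chloride libraries for the more abundant model, while propionate 5 lay between chloride libraries for the other. The log2 differences were 0.29 (SE 0.10) and -1.81 (SE 0.75), with an adjusted p of 0.845 in limma for each. Reads outside these exons cannot separate the 2 models in their coding part, and the sum over the gene overlapped between salts. The models compared between salts here and in Rab11b, Rab23 and Rab4b were named for the smallest p per direction. That choice favours models without overlap, and the share of all transcripts without overlap is not given here.

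Rab11b, the other widely expressed Rab of the recycling endosome, was split in a similar way between a reference and an assembled model. The reference model ENSMUST00000057373 had 9.82, 6.49 and 3.11 TPM in propionate libraries, against 0, 2.91 and 0.956 TPM in chloride libraries. The assembled model had 1.71, 1.82 and 4.37 TPM in propionate libraries, against 7.26, 4.16 and 8.74 TPM in chloride libraries. The reference model did not overlap between salts and the assembled model did, while the gene's sum of 13.8, 10.4 and 9.47 TPM in propionate libraries, against 11.6, 9.58 and 10.2 TPM in chloride libraries, overlapped. Log2 differences were 1.81 (SE 0.61) for the reference model and -1.11 (SE 0.38) for the assembled one, with an adjusted p of 0.845 in limma for each. In Rab23, the retained-intron model ENSMUST00000150593 had 0.0205, 0.209 and 0.0905 TPM in propionate libraries, against 0.646, 0.955 and 3.78 TPM in chloride libraries. Chloride 3, where it was highest, listed the leading coding model of Rab23 at 0, and the other 5 libraries had 5.56 to 7.14 TPM of that coding model. The third model on the higher side was ENSMUST00000093040 of Rab4b, with 7.68, 7.18 and 8.43 TPM in propionate libraries, against 6.05, 6.50 and 5.94 TPM in chloride libraries.

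**Figure D4:**
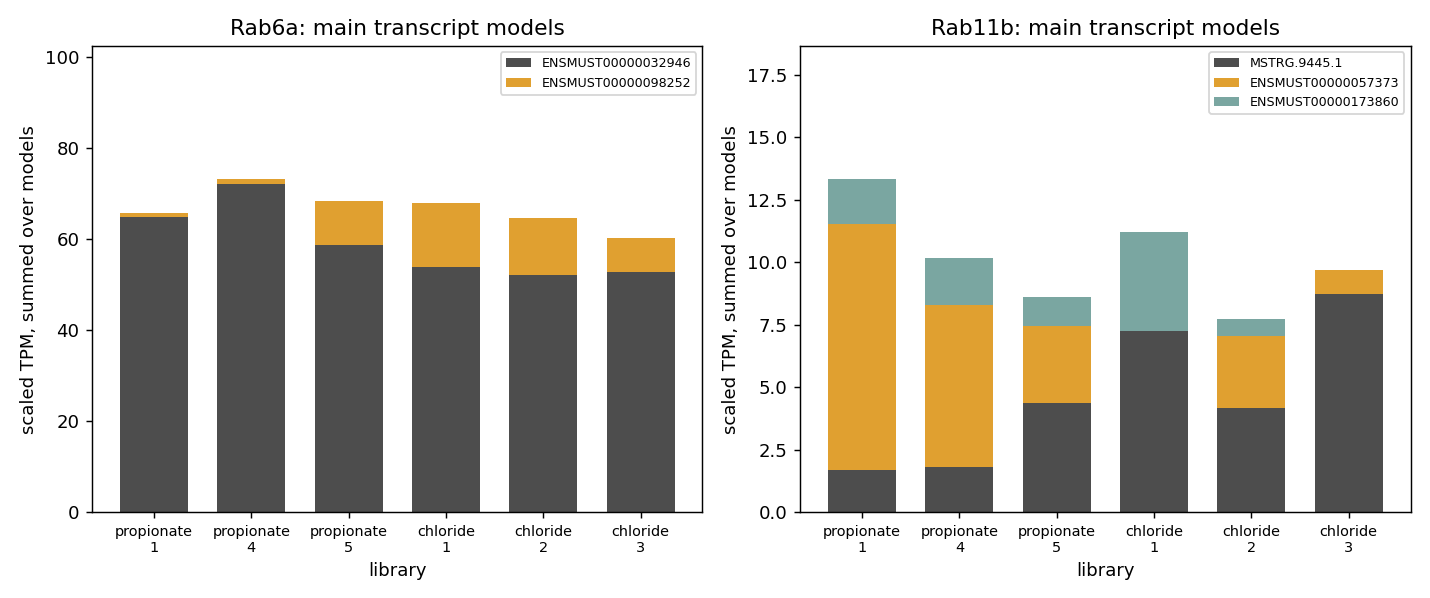
Scaled TPM of the main transcript models of Rab6a (left) and Rab11b (right), stacked per library, with the 3 propionate libraries left of the 3 chloride libraries. The scaling is that of the transcripts, not that of the genes. The share of each model differs between libraries while the stacked height varies less, and ENSMUST00000032946 of Rab6a is above 58 TPM in propionate libraries and below 54 TPM in chloride libraries.

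RefSeq promoter windows of 300 bases, from 250 before to 50 after the start, were found for 48 of the 59 members (GRCm38.p6). The window nearest to the start of each gene's highest model was taken. Its start lay 4765 bases from the model's start in Rab25, 1994 in Rab17 and 1344 in Rab11b, and at most 267 in the other members. The windows of Rab25, Rab17 and Rab11b may therefore not be those of the measured models. The 37 windows of tested members held a median of 24 CpG dinucleotides (range 6 to 43), and the 11 windows of members under the filter held 11 (range 5 to 38). Over all genes with a window, the medians were 22 in 9244 tested genes and 4 in 11724 genes under the filter. CpG count did not sort every member. Rab1a and Rab39 both held 27 CpG, at 173 TPM and at a listed 0, and Rab9 and Rab33a held 9 and 7, at 59.6 and 0.0142 TPM. These windows are shown as the clearest exceptions and their counterparts, with each CpG in capitals.
Rab1a, chr11:20201162-20201461, plus strand: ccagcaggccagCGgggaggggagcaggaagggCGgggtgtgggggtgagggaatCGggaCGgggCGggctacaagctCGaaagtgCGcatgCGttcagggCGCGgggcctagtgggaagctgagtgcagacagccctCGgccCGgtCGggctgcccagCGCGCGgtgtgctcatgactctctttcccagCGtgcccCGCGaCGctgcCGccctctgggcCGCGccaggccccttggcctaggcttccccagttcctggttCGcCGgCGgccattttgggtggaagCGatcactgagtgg
Rab39, chr9:53706183-53706482, minus strand: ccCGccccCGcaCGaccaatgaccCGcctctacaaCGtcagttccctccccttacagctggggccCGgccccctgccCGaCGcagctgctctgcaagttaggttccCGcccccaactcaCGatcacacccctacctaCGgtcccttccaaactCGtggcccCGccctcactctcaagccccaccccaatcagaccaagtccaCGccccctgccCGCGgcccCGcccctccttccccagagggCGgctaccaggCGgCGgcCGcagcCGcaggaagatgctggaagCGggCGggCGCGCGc
Rab9, chrX:166479818-166480117, minus strand: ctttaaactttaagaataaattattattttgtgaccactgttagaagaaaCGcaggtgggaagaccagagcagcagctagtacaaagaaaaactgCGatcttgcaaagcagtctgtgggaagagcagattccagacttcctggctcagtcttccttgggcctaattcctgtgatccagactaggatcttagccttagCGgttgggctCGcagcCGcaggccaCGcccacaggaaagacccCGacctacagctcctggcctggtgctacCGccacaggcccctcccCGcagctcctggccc
Rab33a, chrX:48519035-48519334, plus strand: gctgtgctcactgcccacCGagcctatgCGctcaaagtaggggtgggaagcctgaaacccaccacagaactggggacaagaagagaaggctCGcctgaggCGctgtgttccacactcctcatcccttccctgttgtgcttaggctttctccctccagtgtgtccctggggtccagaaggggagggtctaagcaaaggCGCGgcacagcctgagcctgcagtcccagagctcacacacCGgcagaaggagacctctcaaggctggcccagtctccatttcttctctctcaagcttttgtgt
The motif GGGCGG, searched on both strands, was found in 29 of the 37 windows of tested Rab genes (78.4%), against 67.3% of the windows of all tested genes. CCAAT, on both strands, was in 20 (54.1%), against 40.2% of all. CACGTG, which reads the same on both strands, was in 5 (13.5%), against 10.5% of all. TATAAA, on both strands, was in 3 (8.11%), against 6.76% of all. The motif TGACGTCA, which holds a CpG, went the other way and was in 1 (2.70%), against 3.47% of all. GGGCGG and CACGTG each hold a CpG as well, so these counts are not separate from the CpG counts.

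**Figure D5:**
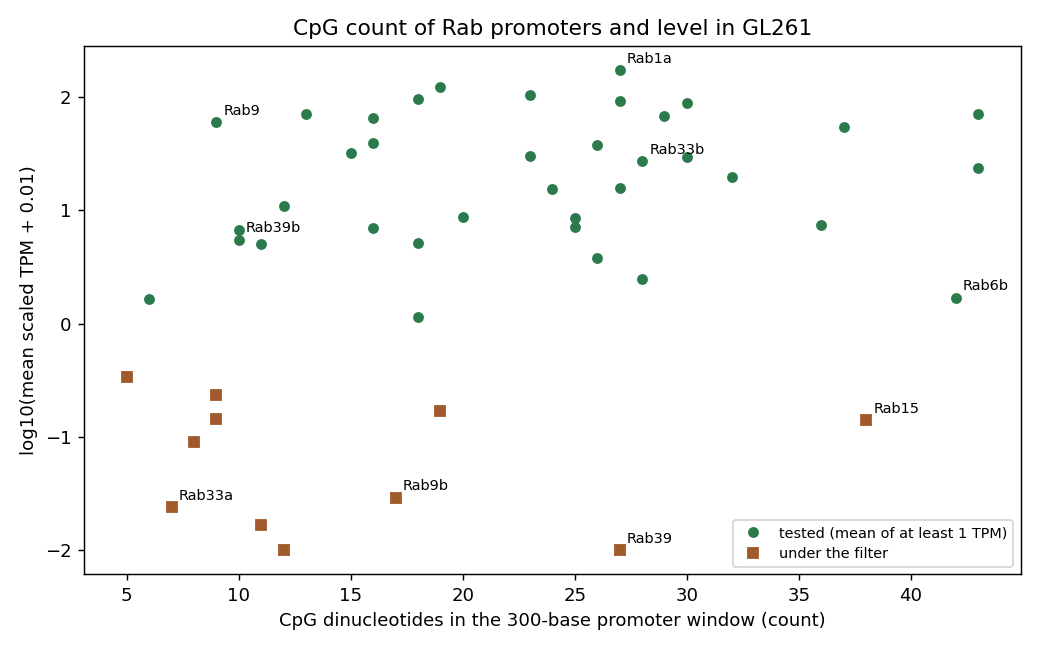
CpG count in the 300-base promoter window against log10(mean scaled TPM + 0.01), for 37 tested Rab genes (green circles) and 11 under the filter (brown squares). Rab39 and Rab15 have 27 and 38 CpG at 0 and 0.130 TPM, and Rab9 has 9 CpG at 59.6 TPM.

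The machinery that acts on Rabs was read from lists of 175 genes, of which 174 were in the files and 148 were tested. None passed the adjusted threshold in limma, and at an unadjusted p under 0.05 there were 3 higher and 4 lower, against 5.15% of all genes tested. By sign 73 were higher and 75 lower, and the median log2 difference was -0.0017. In prenylation and membrane cycling, 0 of 12 were called. Its most abundant genes were Gdi2, a GDP dissociation inhibitor, at 206 ± 35.9 TPM in propionate libraries and 208 ± 15.4 TPM in chloride libraries, and Rabggtb, the catalytic subunit of Rab geranylgeranyl transferase, at 152 ± 42.2 TPM in propionate libraries and 153 ± 42.1 TPM in chloride libraries (SD, n = 3 each). Chml, a Rab escort protein, had 6.76, 9.05 and 8.06 TPM in propionate libraries, against 9.73, 9.47 and 10.2 TPM in chloride libraries, all lower, with a log2 difference of -0.28 (SE 0.11). It was named for the smallest p on the lower side of its list. Rabac1, which frees Rabs from the inhibitor, had a log2 difference of 0.13 (SE 0.08).

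Exchange factors and GTPase-activating proteins likewise gave no call, in 46 and 36 genes tested. Rin2, which activates Rab5, had 25.5, 27.9 and 26.2 TPM in propionate libraries, against 24.6, 23.3 and 21.9 TPM in chloride libraries. Tbc1d10b, a GTPase-activating protein, had 12.0, 10.2 and 9.65 TPM in propionate libraries, against 13.3, 12.8 and 15.3 TPM in chloride libraries. Tbc1d7, a TBC domain protein of the tuberous sclerosis complex, had 14.8, 14.6 and 13.6 TPM in propionate libraries, against 12.3, 11.8 and 10.8 TPM in chloride libraries. None of these 3 genes overlapped between salts, against 11.7% of all genes tested without overlap. They were named for the smallest p of their list and direction, which favours genes without overlap. The log2 differences were 0.18 (SE 0.07) for Rin2, -0.35 (SE 0.11) for Tbc1d10b and 0.28 (SE 0.08) for Tbc1d7, each at an adjusted p of 0.913 in limma. Dennd1a, an exchange factor of Rab35, had a log2 difference of -0.25 (SE 0.12). The 2 highest exchange factors were Dennd5a (89.6 TPM) and Trappc4 (70.9 TPM), and the 2 highest GTPase-activating proteins were Tbc1d1 (65.9 TPM) and Rabgap1 (49.1 TPM).

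Of the effectors, 0 of 37 tested genes were called. Rabep1, a Rab5 effector, was the highest at 76.1 TPM, followed by Plin3, a Rab9 effector, at 37.9 TPM. Plin3 had a log2 difference of 0.13 (SE 0.07) and Appl2, another Rab5 effector, of -0.15 (SE 0.07). Among the 9 HOPS and CORVET tethers, which tether late and early endosomes, 2 were higher and 7 lower by sign and 0 were called. Of all genes tested, 51.8% were higher by sign, and the lean of these few genes was not tested. Vps16, a core subunit, averaged 25.9 ± 1.61 TPM in propionate libraries and 31.2 ± 3.25 TPM in chloride libraries (SD, n = 3 each), with no overlap, a log2 difference of -0.26 (SE 0.09) and an adjusted p of 0.913 in limma. It too was named for the smallest p of its list, and 11.7% of all genes tested did not overlap. Vps41, a HOPS subunit, was the highest tether at 39.0 TPM, and Vps33b had a log2 difference of 0.08 (SE 0.08). Lrrk2, the kinase of Rab8a, Rab10 and other Rabs, averaged 33.3 ± 1.37 TPM in propionate libraries and 32.8 ± 0.188 TPM in chloride libraries (SD, n = 3 each), with Lrrk1 at 20.4 TPM and the phosphatase Ppm1h at a log2 difference of -0.14 (SE 0.10). Among 5 tested Rab-like GTPases outside the name rule, Rabl6 and Ift27 were the highest, at 37.5 and 19.6 TPM, and none was called.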

How the data were processed

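Total RNA of GL261 cells was purified with an RNeasy kit and made into libraries by a stranded TruSeq Gold kit, as the labels' protocols state. HISAT2, StringTie, bcl2fastq, fastp and the build mm10 are listed in the submitters' processing notes. Per the file headers, StringTie 2.1.1 estimated a fixed set of 142491 reference and 14805 assembled transcript models in each library, with strand and other settings not given in the sources used here. Each deposited file gives coverage, FPKM and TPM per transcript and no counts, held in an attribute field, so other deposited numbers were not used.

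An assembled model was joined to the reference gene of its locus and strand with the largest exonic overlap. TPM were summed per gene and scaled by median ratios (factors of 0.971, 0.966 and 0.967 for propionate 1, 4 and 5, and 1.09, 0.990 and 1.03 for chloride 1, 2 and 3). Tested genes averaged 1 TPM or more and had a transcript of 200 nt or longer, and the test was run on log2(TPM + 1) with limma 3.58.1 in R 4.3.3, two-sided, with a variance trend and Benjamini-Hochberg adjustment over all genes at 0.05. This scale understates changes of low genes. Transcripts were scaled by median ratios of their own, with factors other than those given for genes, and were otherwise tested likewise. Ratios and sums were tested by exact permutation over the 6 libraries, with 0.1 as the smallest p. The fits were also run on simulated data. Those values were drawn independently per gene with no effect shared by a library, so such effects were not tested. Sequence features came from GENCODE M21 transcripts and RefSeq promoter windows, read with Python 3.11.15, pandas 2.3.3 and Biopython 1.88, and figures were drawn with matplotlib 3.10.9.

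The members, lists and tests were chosen with earlier results of these data known. Named for the salt comparison were the 5 genes per direction with the smallest p, since none passed. Named for level were the 10 highest, those at 0 and the paralog sets. For transcripts, the 3 per direction with the smallest p were named, and for each list the gene with the smallest p in each direction and the 2 highest. Genes outside this rule were named for their level or for libraries that did not overlap, after their values were seen. Read pairs were estimated from coverage and transcript length, with a pair taken as 202 bases. Alternatives covered pseudocounts, filters, scaling, transcript and gene definitions, variance models, voom and the libraries used.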

Additional observations from a re-analysis of the deposited data

How the results depend on the processing

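The counts of called Rab genes, in each direction, stayed at 0 under all 19 alternatives, that of called Rab transcripts under all 16 and that of called pathway genes under all 19. The number of Rab genes tested ran from 38 with a mean of at least 5 TPM to 56 with no filter. With TPM as deposited the median log2 difference of the tested Rab genes was -0.070 beside -0.083 over all genes, the log2 ratio of the summed level was -0.063 (exact permutation test, p = 0.6), and Rab5c, Rab8a and Rab12 turned to -0.0011, -0.027 and -0.032. With reference transcripts alone Rab21 turned to 0.025, and 1 paralog pair did not overlap between salts. In the 4 better-covered libraries 7 pairs did not overlap, where 2 against 2 separate more easily, and leaving out 1 library at a time gave 3 to 7 pairs. Leaving out 1 library at a time moved the median log2 difference between 0.00031 and 0.045 and the summed log2 ratio between 0.011 and 0.063. No paired analysis was possible because the salts share only replicate number 1. The term tried for propionate 1 and chloride 3, among the alternatives above, stands for their low number of covered transcripts and pairs no samples by number, and it gave no call (lowest adjusted p 0.575 in limma). Depth is known in counted bases only, and levels of a few read pairs, as in Rab33a and Rab3c, cannot be told from 0.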
